A study of Mus musculus with 24 samples.

Results

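The SLC25 family holds the carriers of the inner mitochondrial membrane, and its transcripts were followed in primary brite adipocytes after knockdown of the long noncoding RNA Ctcflos. Members were the RefSeq mRNA rows of the deposited expression table whose symbol is Slc25a and a number, with 1 row per symbol, the one of highest mean level over 24 libraries. The rule used no difference between groups and gave 47 members among 20461 genes with such a row. Of these, 30 passed the filter on low values at 24 h and 33 at 72 h, and Slc25a14, Slc25a34 and Slc25a36 passed at 72 h only. The 14 that passed at neither time had mean scaled levels of 0 to 0.478 RPKM (reads per kilobase of transcript, per mapped reads of the library, rescaled between samples), and Slc25a18, Slc25a41 and Slc25a48 were listed at 0 in every library.

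The cells were preadipocytes from the stromal-vascular fraction of inguinal white adipose tissue of 129SvEv mice. By the labels they were induced for 2 days at sub-confluence, differentiated for 1 day with rosiglitazone, which drives browning, and then reverse transfected at 50 nM with an LNA gapmer, an antisense oligonucleotide that recruits RNase H. The 4 groups were KD 24 h and KD 72 h, which received the Ctcflos gapmer and were harvested 24 h or 72 h later, and NC 24 h and NC 72 h, which received a non-targeting gapmer. Genotype, strain, induction and rosiglitazone were the same in all groups, and no untransfected cells and no cells without rosiglitazone entered these comparisons. Each group held 6 libraries of total RNA from the whole culture, so fewer cells of a type and less RNA per cell cannot be told apart. Replicates 2 and 3 of NC 72 h differed by 0.370 of the counting noise, against at least 1.93 for every other pair of libraries, and were counted as 1 sample, which left 5 samples in that group. The study calls its replicates biological, but neither it nor the labels say that they came from separate animals, so the p-values measure the spread between these samples, which may be technical.

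Carriers of this family share a fold of repeated transmembrane segments and exchange or import metabolites that the inner membrane would otherwise hold back. Adenine nucleotides, phosphate, citrate, dicarboxylates, amino acids, acylcarnitines and enzyme cofactors each have carriers of their own. UCP1, the uncoupling protein that defines thermogenic fat cells, belongs to the same family under another symbol, and the ADP/ATP carriers are abundant proteins of fat cell mitochondria.

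Slc25a24 and Slc25a42 had the largest absolute log2 fold changes among the members called at both times, in opposite directions, and their promoters are printed for that reason. Slc25a24, the calcium-regulated ATP-Mg/phosphate carrier, has its promoter window at chr3:109122899-109123198 on the plus strand. Slc25a42, the coenzyme A carrier, has its window at chr8:70212232-70212531 on the minus strand. The windows run from 250 bases before to 50 bases after the gene's start in RefSeq, GRCm38.p6, and capitals mark matches to CCAAT or to GGGCGG (a GC box) on either strand.
Slc25a24 promoter: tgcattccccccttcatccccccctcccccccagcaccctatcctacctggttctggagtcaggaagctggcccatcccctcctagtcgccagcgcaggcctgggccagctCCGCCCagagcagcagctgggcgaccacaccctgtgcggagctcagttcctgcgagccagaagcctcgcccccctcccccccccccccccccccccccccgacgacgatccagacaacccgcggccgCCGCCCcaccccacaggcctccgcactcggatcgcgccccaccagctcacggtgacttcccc
Slc25a42 promoter: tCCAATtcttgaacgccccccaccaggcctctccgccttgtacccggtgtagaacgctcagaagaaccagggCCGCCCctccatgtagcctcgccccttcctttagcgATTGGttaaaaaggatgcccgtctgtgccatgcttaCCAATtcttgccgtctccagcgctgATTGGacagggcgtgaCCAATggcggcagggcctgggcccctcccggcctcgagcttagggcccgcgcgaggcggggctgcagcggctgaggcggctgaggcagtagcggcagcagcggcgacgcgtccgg

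The Slc25a24 window held GC boxes and no CCAAT, and the Slc25a42 window held 5 matches to CCAAT, a number reached or passed by 0.271% of the 32851 RefSeq promoters of that length. Promoters of 36 of the 47 members were in the table, 46 windows in all. CCAAT was in 22 of these 46 windows, against 37.4% of all promoters, and GGGCGG was in 38 of 46, against 35.7%. The motif TCAAGGTCA, read by estrogen-related receptors, was in none of the 46 windows and in 0.423% of all promoters. These matches describe letters in a window and say nothing of binding.

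The targeted transcript was lower in KD at both times. Ctcflos (1300015D01Rik, NR_040321) had deposited levels of 0 to 0.62 RPKM in KD 24 h (median 0.0923) against 0.178 to 1.38 in NC 24 h (median 0.73), with overlapping groups and an exact permutation p of 0.0455 (two-sided; adjusted over 2 times, 0.0455). At 72 h KD ran from 0 to 0.517 RPKM (median 0.215) and NC from 0.886 to 1.75 (median 0.971), without overlap, and the exact permutation p of 0.00433 (adjusted, 0.00866) was the smallest that 6 against 5 samples allow. The 24 h difference missed the threshold in 8 of 12 recomputations without 1 sample, with exact p up to 0.0909, for KD 24 h replicates 1, 2, 3 and 5 and NC 24 h replicates 1, 3, 4 and 5. Libraries held 1391832 to 5926371 reads as recovered from the steps of the values, with a median of 4009998, and KD 24 h replicate 6 was the shallowest. Deviations from the group means fell into a cluster of 15 samples and one of 8, the latter with 2 samples of each group.

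Before any comparison, the level of the members spanned several orders of magnitude. Slc25a5, the ADP/ATP carrier ANT2, had a mean scaled level of 1818 RPKM over all samples, followed by Slc25a4, the carrier ANT1, at 349 and Slc25a3, the mitochondrial phosphate carrier, at 238. Slc25a39, a glutathione carrier, stood at 112 RPKM, Slc25a20, the carnitine-acylcarnitine carrier, at 72.1 and Slc25a1, the citrate carrier, at 54.0. Slc25a11, the oxoglutarate/malate carrier, and Slc25a10, the dicarboxylate carrier, had 43.8 and 42.0 RPKM, a difference smaller than the spread of either within a group. The library method reads the 3′ end of transcripts, so values per length understate long transcripts and this order is approximate.

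**Figure D1:**
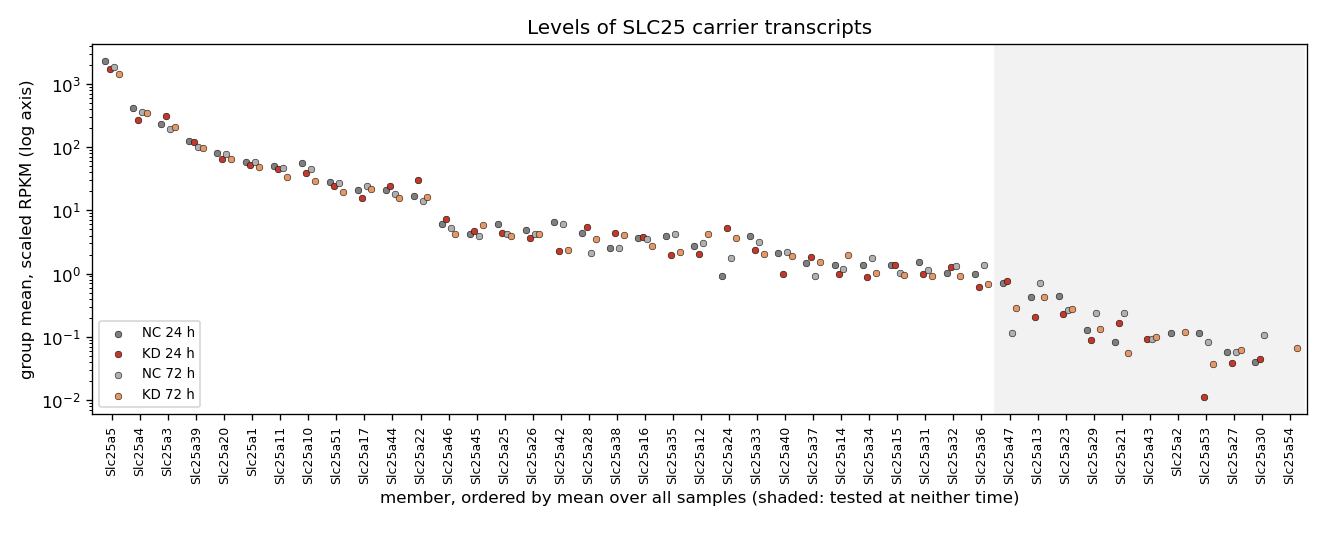
Mean scaled RPKM (log axis) of each member in NC 24 h, KD 24 h, NC 72 h and KD 72 h, ordered by the mean over all samples; members at 0 in a group have no point there, those at 0 in all libraries and 1 more are left out, and the shaded members were tested at neither time. Slc25a5 stood above all others, and Slc25a24 had its KD 24 h point well above its NC 24 h point.

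Slc25a5 alone made up a mean of 65.8% of the summed member level in NC 24 h, 59.7% in KD 24 h, 63.6% in NC 72 h and 60.1% in KD 72 h. The summed level was 3428 to 3632 scaled RPKM in NC 24 h (median 3474) and 1855 to 3573 in KD 24 h (median 2698). At 72 h it was 2698 to 3048 in NC (median 2856) and 2139 to 2789.5 in KD (median 2374). The sum overlapped between KD and NC at both times and moved mostly with Slc25a5.

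At 24 h, 9 of the 30 members tested were called (limma, adjusted p under 0.05), 7 lower and 2 higher in KD, where 12.8% of all genes tested were called lower, 11.0% higher, and 22.4% of all entries were called in either direction. Slc25a4, Slc25a10, Slc25a33, Slc25a35 and Slc25a42 were among those that fell, and Slc25a22 and Slc25a24 rose. Slc25a40 was also called lower, but only NC samples reached the read minimum in the number that the filter asks for. The same held for Slc25a35, and for Slc25a24 only the KD samples did. The median log2 fold change of the members was −0.20, with 20 of 30 below 0, beside a median of −0.02 over all genes, of which 51.5% were below 0. Without the shallowest library, KD 24 h replicate 6, 10 members were called, 7 lower and 3 higher, Slc25a3 being the one added. On the deposited scale, without rescaling between samples, 6 were called lower and 2 higher, and over all genes the higher share of the calls was 53.3% in place of 46.2%.

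At 72 h, 10 of 33 members were called, 7 lower and 3 higher, where 12.1% of all genes tested were called lower, 11.3% higher, and 22.1% of all entries in either direction. Slc25a5, Slc25a10, Slc25a11, Slc25a35, Slc25a42 and Slc25a51 were among those that fell, Slc25a24 and Slc25a45 rose, and Slc25a14 was called higher but passed the filter through KD samples only. The median log2 fold change of the members was −0.22, with 23 of 33 below 0, beside 0.03 over all genes, of which 47.8% were below 0. The direction of the 72 h calls turned with the scaling: on the deposited scale 1 member was called lower and 8 higher, 16 of 33 were below 0 with a median of 0.03, and 81.3% of the called genes were higher in place of 48.2%, since the median of all genes was then 0.26 above 0. Of the 10 calls, 4 were also called on that scale, those of Slc25a14, Slc25a24, Slc25a42 and Slc25a45. Leaving out NC 72 h replicate 6 lowered the number called from 10 to 6.

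**Figure D2:**
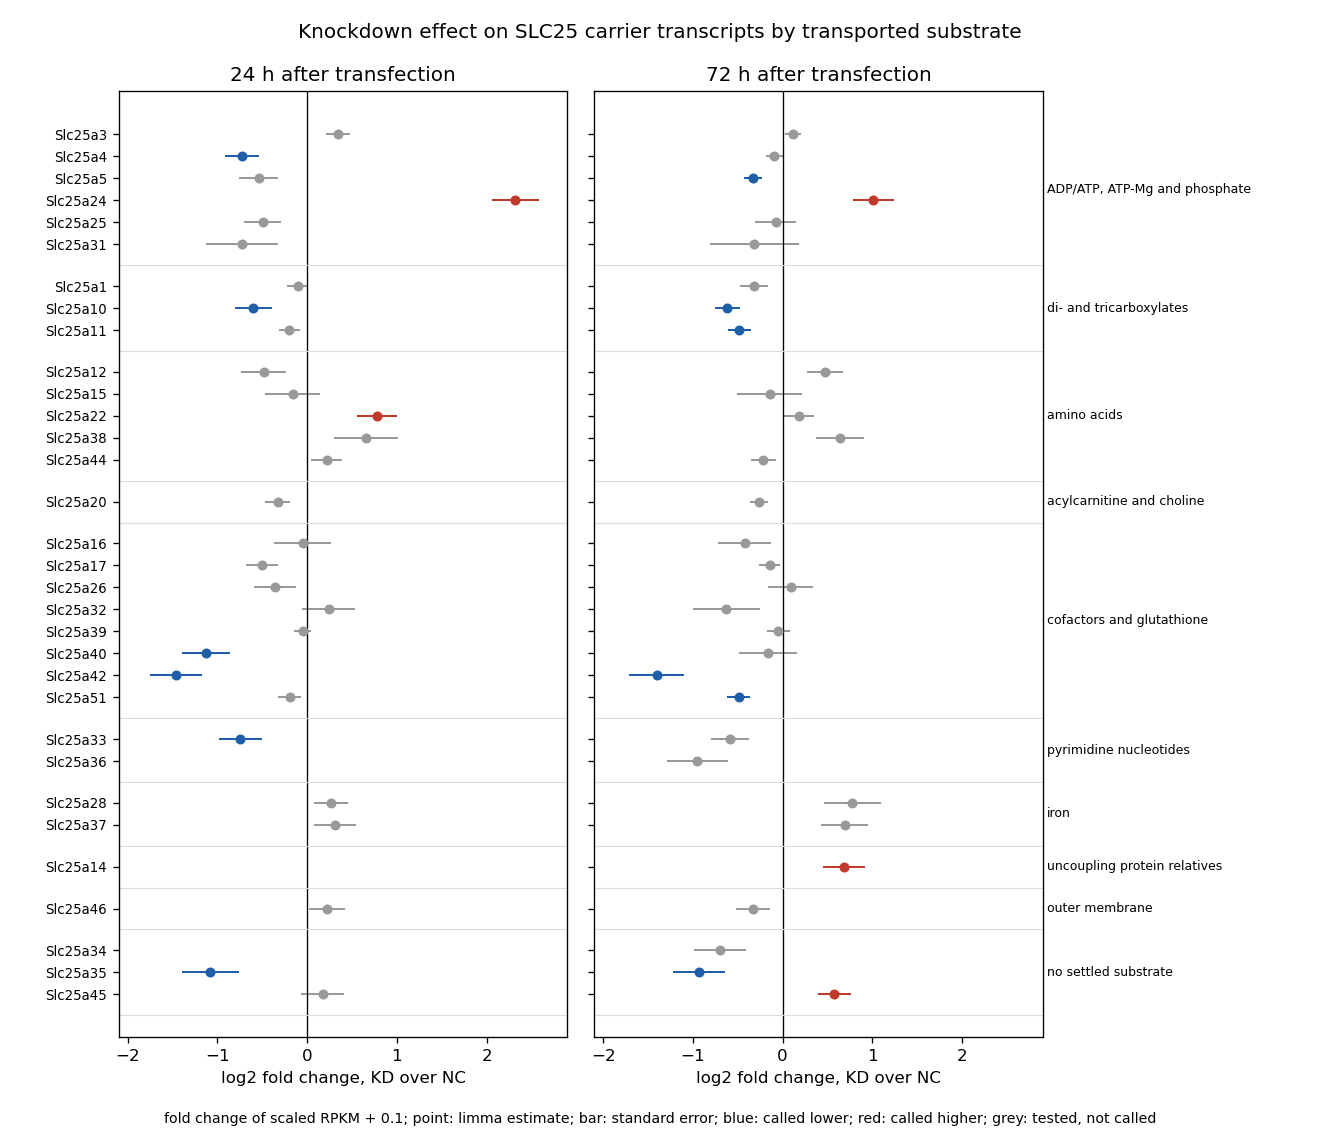
Log2 fold change of scaled RPKM + 0.1, KD over NC, for each member tested but 1, at 24 h (left) and 72 h (right), grouped by transported substrate; points are limma estimates, bars are standard errors, and colour marks members called lower (blue), higher (red) or not called (grey). Slc25a24 stood at 2.32 and 1.01, and Slc25a42 at −1.46 and −1.41.

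Among the carriers of adenine nucleotides and phosphate, 1 of 6 tested members fell and 1 rose at each time, and the member that rose was Slc25a24 both times. Slc25a24 (NM_172685) had scaled levels of 0.67, 0.896 and 1.14 RPKM (lowest, median and highest) in NC 24 h and 2.65, 5.68 and 7.26 in KD 24 h. At 72 h NC read 1.39, 2.54, 2.05, 1.64 and 1.22 scaled RPKM, and KD 2.84, 3.37 and 4.65. All KD samples were above all NC samples at both times. At 24 h Slc25a24 reached the read minimum in 6 KD and 5 NC samples, with 8 to 20 reads in NC. Only KD, where it was high, met the number the 24 h filter asks for, so its 24 h values are given as a description. Its log2 fold change was 2.32 ± 0.27 (SE) at 24 h, 4.99-fold (limma, adjusted p = 0.000114), and 1.01 ± 0.23 at 72 h, 2.02-fold (adjusted p = 0.0068). The call was kept in each recomputation without 1 sample, at 2.24 without KD 24 h replicate 6, and at 1.25 on the deposited scale at 72 h. With the replicate number as a block it missed the threshold at 72 h (0.94; limma, adjusted p = 0.0531). All 3 tested entries of the gene, RefSeq or other, were called higher at both times (3 of 4 were tested). Entries of the same gene can hold the same reads of the same libraries, here and below, so their calls are not independent support.

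Slc25a4 (NM_007450), the ANT1 form typical of heart and muscle, fell at 24 h. Its scaled level was 382, 429 and 449.7 RPKM in NC 24 h (lowest, median, highest) and 145, 279 and 384 in KD 24 h, where 5 of 6 KD samples lay below the lowest NC sample. At 72 h NC held 365, 419.9, 317, 332 and 393 scaled RPKM and KD 295, 349 and 363, and the groups overlapped. The log2 fold change was −0.72 ± 0.19 at 24 h (limma, adjusted p = 0.0156), at −0.56 without KD 24 h replicate 6, and −0.09 ± 0.10 at 72 h (adjusted p = 0.519), with the opposite sign on the deposited scale (0.15, adjusted p = 0.206).

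Slc25a5 (NM_007451), the ANT2 form of proliferating and many other cells, showed the wider spread of the pair in RPKM, at a level several times higher. In NC 24 h its scaled level was 2212, 2279.9 and 2444 RPKM and in KD 24 h 741, 1683 and 2423, and the groups overlapped. NC 72 h stood at 1725, 1625, 1941, 1889 and 1943 scaled RPKM, and KD 72 h at 1229, 1439 and 1713, with 5 of 6 KD samples below the lowest NC sample. It was called lower at 72 h at a log2 fold change of −0.33 ± 0.10 (limma, adjusted p = 0.0265) and missed the threshold at 24 h at −0.54 ± 0.22 (adjusted p = 0.0866), a value that was −0.32 without KD 24 h replicate 6 (adjusted p = 0.0606). At 72 h 3 of 5 tested entries of the gene were called lower. The 72 h call was lost on the deposited scale (−0.09, adjusted p = 0.597) and without KD 72 h replicate 1 or 3 or NC 72 h replicate 4, 5 or 6, with adjusted p up to 0.0615. As a share of both ADP/ATP carriers, Slc25a4 made up 13.9% to 16.6% in NC 24 h and 12.3% to 16.3% in KD 24 h, then 14.0% to 20.5% in NC 72 h and 16.1% to 21.4% in KD 72 h, overlapping at each time.

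Slc25a3 (NM_133668), which brings in the phosphate for ATP synthesis, was called at neither time. It read 223, 231 and 258 scaled RPKM in NC 24 h and 257, 276 and 479 in KD 24 h, with log2 fold changes of 0.34 ± 0.14 (limma, adjusted p = 0.0848) at 24 h and 0.12 ± 0.09 (adjusted p = 0.383) at 72 h. At 72 h NC held 194, 187, 199, 199 and 186 scaled RPKM and KD 189, 203 and 249, and the groups overlapped at both times. The value of 479 came from KD 24 h replicate 6, the shallowest library, and without it the 24 h difference was 0.21 (adjusted p = 0.0449), while the deposited scale gave 0.36 at 72 h (adjusted p = 0.0254). Slc25a25, a relative of Slc25a24, and Slc25a31, an ADP/ATP carrier known from germ cells, had log2 fold changes of −0.50 and −0.73 at 24 h and of −0.08 and −0.32 at 72 h, none of them called. The most abundant entry of Slc25a25, a GenBank mRNA, was called lower at 24 h (−0.56, adjusted p = 0.0414). Slc25a23 and Slc25a41, further ATP-Mg carriers, did not pass the filter.

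**Figure D3:**
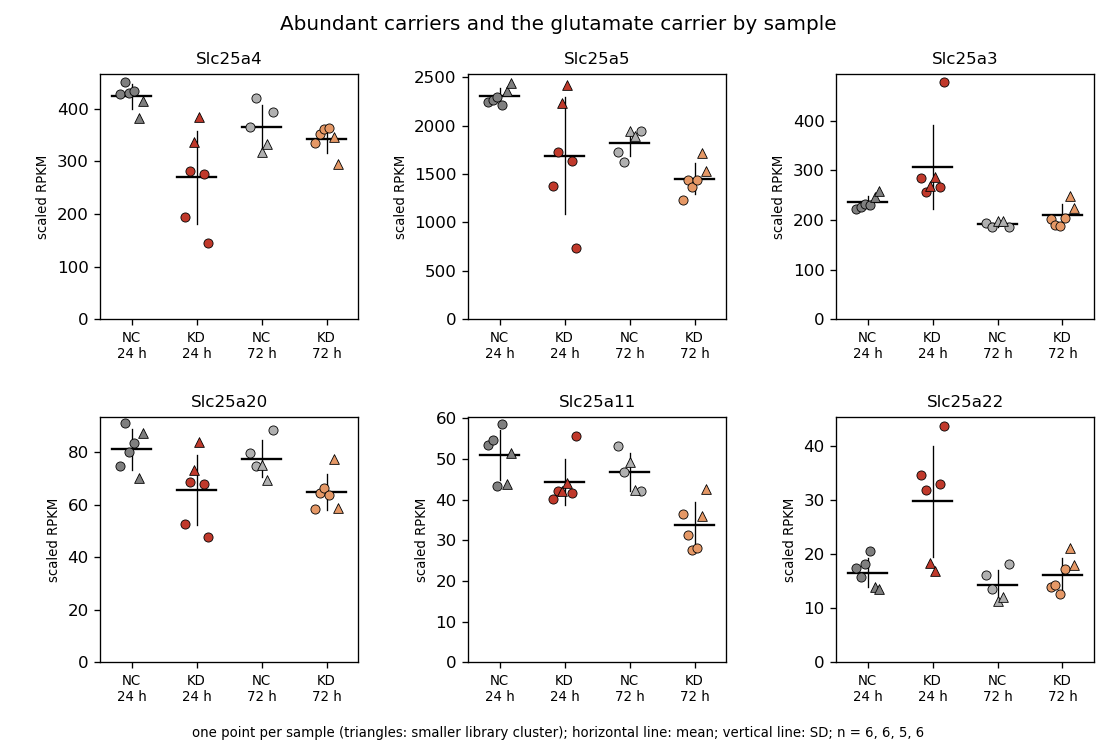
Scaled RPKM of Slc25a4, Slc25a5, Slc25a3, Slc25a20, Slc25a11 and Slc25a22 in each sample of NC 24 h, KD 24 h, NC 72 h and KD 72 h (triangles mark the smaller library cluster; lines show mean and SD; n = 6, 6, 5 and 6). Slc25a5 ran from 741 to 2423 in KD 24 h against 2212 to 2444 in NC 24 h.

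The di- and tricarboxylate carriers, which connect the citric acid cycle with the cytosol, were below 0 in all 3 tested members at both times, on either scale. Slc25a10 (NM_013770), which exchanges malate or succinate for phosphate, had scaled levels of 52.0, 55.3 and 59.9 RPKM in NC 24 h and 18.1, 39.2 and 51.5 in KD 24 h. NC 72 h read 51.8, 42.6, 40.1, 39.8 and 48.4 scaled RPKM and KD 72 h 23.5, 26.8 and 37.7. The groups did not overlap at either time. Its log2 fold change was −0.60 ± 0.21 at 24 h (limma, adjusted p = 0.0473), 1.52-fold lower, and −0.62 ± 0.14 at 72 h (adjusted p = 0.00593), 1.54-fold lower. The 24 h call sat at the threshold and was lost without any 1 of 9 of the 12 samples (KD 24 h replicates 1, 2 and 5 and each NC 24 h replicate, adjusted p up to 0.0873), and read −0.40 without KD 24 h replicate 6 (adjusted p = 0.0214). The 72 h call was kept without each sample and missed the threshold on the deposited scale (−0.38, adjusted p = 0.0866).

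Slc25a11 (NM_024211), the oxoglutarate/malate carrier of the malate-aspartate shuttle, fell at 72 h. Its scaled level was 43.3, 52.5 and 58.7 RPKM in NC 24 h and 40.2, 42.1 and 55.7 in KD 24 h, then 53.3, 46.7, 49.2, 42.4 and 42.1 in NC 72 h and 27.7, 33.6 and 42.5 in KD 72 h. At 72 h 5 of 6 KD samples lay below the lowest NC sample, and 1 lay within the NC range. The log2 fold change was −0.20 ± 0.12 at 24 h (limma, adjusted p = 0.235) and −0.48 ± 0.13 at 72 h (adjusted p = 0.0142), a call that all 5 tested entries of the gene shared and that the deposited scale did not give (−0.24, adjusted p = 0.244). Slc25a1 (NM_153150), which exports citrate for lipid synthesis, was not called, at −0.11 ± 0.12 (limma, adjusted p = 0.527) and −0.32 ± 0.15 (adjusted p = 0.152). It held 49.5, 55.4 and 71.0 scaled RPKM in NC 24 h, 43.6, 53.4 and 58.3 in KD 24 h, 67.6, 53.4, 52.4, 50.1 and 71.8 in NC 72 h and 37.4, 45.7 and 60.2 in KD 72 h, overlapping at both times. Slc25a21, the oxoadipate carrier, did not pass the filter.

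Of the amino acid carriers, 1 of 5 tested rose at 24 h and none was called at 72 h. On the deposited scale Slc25a12 (0.709; limma, adjusted p = 0.0202) and Slc25a38 (0.875, adjusted p = 0.0275) were called higher at 72 h. The class median was then 0.425, with none of the 5 below 0. Slc25a38 reached the read minimum in 6 KD and 4 NC samples at 72 h, so only KD met the number the filter asks for. Slc25a22 (NM_001177576), a mitochondrial glutamate carrier, had scaled levels of 13.5, 16.7 and 20.6 RPKM in NC 24 h and 16.9, 32.6 and 43.8 in KD 24 h, and 4 of 6 KD samples exceeded the highest NC sample. NC 72 h read 16.2, 13.5, 11.4, 12.1 and 18.2 scaled RPKM and KD 72 h 12.6, 15.8 and 21.1. The rise was 0.78 ± 0.22 on the log2 scale at 24 h, 1.71-fold (limma, adjusted p = 0.0221), with all 10 tested entries of the gene, of 19, called higher, and the 72 h value was 0.18 ± 0.17 (adjusted p = 0.458). Leaving out KD 24 h replicate 1 or 5 raised the adjusted p to 0.0519 or 0.0503. Slc25a38, which carries glycine for heme synthesis, read 0.65 (adjusted p = 0.199) and 0.64 (adjusted p = 0.105) on the log2 scale. The other 3 tested, the aspartate-glutamate carrier Slc25a12, the ornithine carrier Slc25a15 and Slc25a44, a carrier of branched-chain amino acids, ran from −0.48 to 0.22 at 24 h and from −0.22 to 0.47 at 72 h without a call on the rescaled values. Of 4 tested entries of Slc25a12, 1 was called higher at 72 h.

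Slc25a20 (NM_020520), which takes acylcarnitines into the matrix for fatty acid oxidation, was not called. Its scaled level was 70.2, 81.7 and 91.1 RPKM in NC 24 h and 47.5, 68.2 and 83.7 in KD 24 h, then 79.8, 74.7, 75.2, 69.5 and 88.5 in NC 72 h and 58.5, 63.9 and 77.4 in KD 72 h. The groups overlapped at both times, with log2 fold changes of −0.33 ± 0.14 (limma, adjusted p = 0.1) and −0.26 ± 0.10 (adjusted p = 0.0766). On the deposited scale the 72 h median of this substrate class, which Slc25a20 alone formed, was −0.02.

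Of the carriers of cofactors and glutathione, the class with the most members tested, 3 of 9 were called lower at each time. At each time 8 of 9 were below 0, the exception being Slc25a32 at 24 h and Slc25a26 at 72 h. On the deposited scale 3 were called lower at 24 h and 1 at 72 h, and 6 and 5 of 9 were below 0. Slc25a42 (NM_001007570), which imports coenzyme A, had scaled levels of 2.93, 6.81 and 8.73 RPKM in NC 24 h and 1.41, 2.34 and 3.42 in KD 24 h. NC 72 h read 5.01, 3.65, 5.97, 7.19 and 8.62 scaled RPKM and KD 72 h 1.26, 1.82 and 4.39. At each time 5 of 6 KD samples lay below the lowest NC sample. The log2 fold change was −1.46 ± 0.29 at 24 h, 2.76-fold lower (limma, adjusted p = 0.00387), and −1.41 ± 0.31 at 72 h, 2.65-fold lower (adjusted p = 0.005). The call held without each sample, at −1.53 without KD 24 h replicate 6 and on the deposited scale at 72 h (−1.17, adjusted p = 0.0149), and all 3 tested entries of the gene, of 7, were called lower at both times.

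Slc25a40 and Slc25a51 were each called at 1 time. Slc25a40 (NM_178766), a relative of the glutathione carrier Slc25a39, had scaled levels of 1.68, 2.13 and 2.63 RPKM in NC 24 h and 0.618, 0.776 and 1.98 in KD 24 h, with 5 of 6 KD samples below the lowest NC sample, and it reached the read minimum in 6 NC and 2 KD samples. Only the NC samples, where it was high, met the number the 24 h filter asks for, so its 24 h values are given as a description. At 72 h NC read 1.17, 1.29, 2.4, 2.71 and 3.24 scaled RPKM and KD 1.18, 1.58 and 2.99, with no KD sample below the lowest of NC. It fell by 1.13 on the log2 scale at 24 h (SE 0.27; limma, adjusted p = 0.00918), and at 72 h the value was −0.16 ± 0.32 (adjusted p = 0.764), the sign of which turned on the deposited scale (0.07). Slc25a51 (NM_001009949), the NAD+ carrier, read 23.8, 26.0 and 33.3 scaled RPKM in NC 24 h and 20.1, 23.8 and 27.2 in KD 24 h, then 30.6, 29.7, 23.6, 24.0 and 29.7 in NC 72 h and 16.4, 18.7 and 23.9 in KD 72 h. Its log2 fold change was −0.20 ± 0.13 (limma, adjusted p = 0.294) and −0.49 ± 0.13, 1.41-fold lower (adjusted p = 0.0142), with −0.25 on the deposited scale at 72 h (adjusted p = 0.211). The abundant glutathione carrier Slc25a39 was at −0.05 on the log2 scale at both times. Slc25a16, Slc25a17, a carrier of peroxisomes and not of mitochondria, Slc25a26, which imports S-adenosylmethionine, and Slc25a32, the folate carrier, ran from −0.50 to 0.24 at 24 h and from −0.63 to 0.09 at 72 h without a call.

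**Figure D4:**
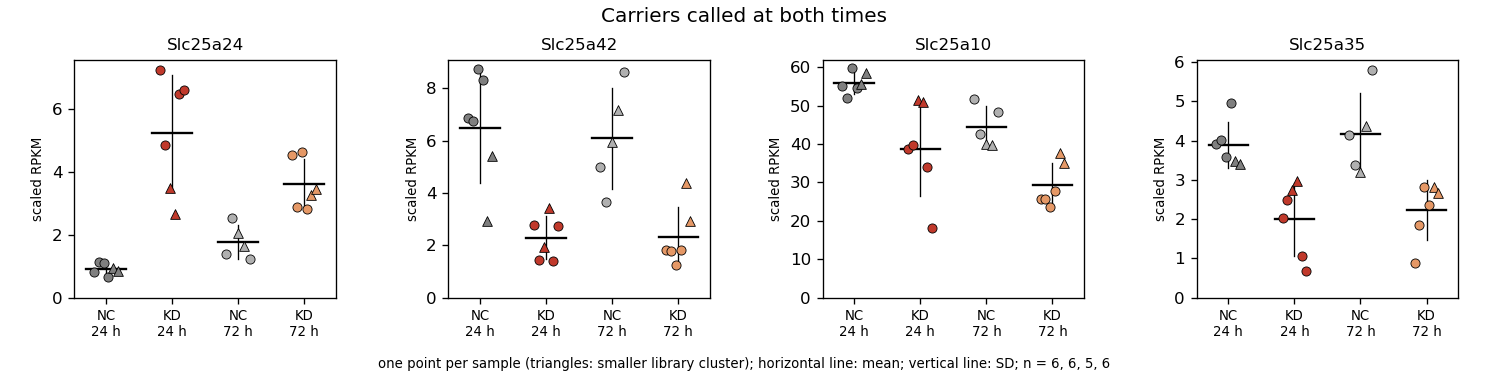
Scaled RPKM of Slc25a24, Slc25a42, Slc25a10 and Slc25a35, members called at both times, in each sample of NC 24 h, KD 24 h, NC 72 h and KD 72 h (triangles mark the smaller library cluster; lines show mean and SD; n = 6, 6, 5 and 6). Slc25a24 rose from a mean of 0.919 in NC 24 h to 5.23 in KD 24 h, and Slc25a42 fell from 6.51 to 2.29. At 24 h Slc25a24 met the sample number of the filter in KD only and Slc25a35 in NC only.

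The pyrimidine nucleotide carrier Slc25a33 (NM_027460) fell at 24 h. Its scaled level was 2.93, 3.59 and 6.31 RPKM in NC 24 h and 1.89, 2.04 and 3.98 in KD 24 h, with 5 of 6 KD samples below the lowest NC sample, and the log2 fold change was −0.75 ± 0.24 (limma, adjusted p = 0.0354). The call was lost in 10 of 12 recomputations without 1 sample (all but KD 24 h replicate 6 and NC 24 h replicate 5), with adjusted p up to 0.0837, and on the deposited scale (−0.67, adjusted p = 0.0763). At 72 h it read 2.5, 2.9, 3.55, 3.89 and 2.88 scaled RPKM in NC and 1.54, 1.95 and 3.0 in KD, at a log2 fold change of −0.59 ± 0.21 (adjusted p = 0.0591). Its relative Slc25a36 was tested at 72 h only, at −0.95 ± 0.34 (adjusted p = 0.0574), on a RefSeq row of low level. Over all entries of the gene, 6 of 8 tested were called lower at 24 h and 7 of 10 at 72 h, with 72 h values from −2.13 to −0.57. The most abundant, a GenBank mRNA at a mean deposited level of 26.9 RPKM, was called lower at both times. It was at −0.68 (limma, adjusted p = 0.0121) and −0.62 (adjusted p = 0.00456), at 72 h a smaller effect than that of the RefSeq row.

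The mitoferrins Slc25a28 and Slc25a37, which import iron for heme and iron-sulfur clusters, lay above 0 at both times without a call, at 0.27 and 0.31 on the log2 scale at 24 h and at 0.78 (limma, adjusted p = 0.094) and 0.69 (adjusted p = 0.0702) at 72 h. On the deposited scale both were called higher at 72 h, and the most abundant Slc25a28 entry, a GenBank mRNA, was called higher at 72 h on the rescaled values (1.10, adjusted p = 0.0201). The RefSeq row of Slc25a28 reached the read minimum in 6 KD and 3 NC samples at 72 h, so only KD met the number the filter asks for. Slc25a14 (NM_001166450), a relative of the uncoupling proteins, was called higher at 72 h. It reached the read minimum in 6 of 6 KD and 0 of 5 NC samples, so it entered the test only through the group where it was high, and its values are given as a description. Its scaled level was 1.19, 1.49, 0.878, 1.02 and 1.42 RPKM in NC 72 h and 1.53, 1.88 and 2.93 in KD 72 h, without overlap, for a log2 fold change of 0.68 ± 0.23 (limma, adjusted p = 0.0498). Only the omission of KD 72 h replicate 5 left that call in place among the 11 recomputations without 1 sample, with adjusted p up to 0.109 in the others, and 1 of 6 tested entries of the gene was called. Slc25a46, a protein of the outer membrane that shapes mitochondria, was at 0.22 and −0.33 on the log2 scale.

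Of the carriers with no settled substrate, Slc25a35 fell at both times and Slc25a45 rose at 72 h. Slc25a35 (NM_028048) had scaled levels of 3.41, 3.75 and 4.97 RPKM in NC 24 h and 0.682, 2.25 and 2.97 in KD 24 h, then 4.15, 3.37, 3.21, 4.36 and 5.81 in NC 72 h and 0.881, 2.51 and 2.83 in KD 72 h. No KD sample reached the lowest NC sample at either time. At 24 h Slc25a35 reached the read minimum in 4 KD and 6 NC samples. Only NC, where it was high, met the number the 24 h filter asks for, so its 24 h values are given as a description. The log2 fold change was −1.08 ± 0.32 at 24 h, 2.12-fold lower (limma, adjusted p = 0.0249), and −0.93 ± 0.29 at 72 h, 1.91-fold lower (adjusted p = 0.0326). At 24 h the call was lost without KD 24 h replicate 5 (adjusted p = 0.0589) or NC 24 h replicate 4 (adjusted p = 0.0574), and at 72 h without KD 72 h replicate 2 or NC 72 h replicate 1, 5 or 6, with adjusted p up to 0.0833, and on the deposited scale (−0.70, adjusted p = 0.0865).

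Slc25a45 (NM_134154) read 2.65, 3.93 and 6.74 scaled RPKM in NC 24 h and 2.98, 4.72 and 6.16 in KD 24 h. NC 72 h held 2.76, 4.53, 3.49, 5.07 and 3.93 scaled RPKM and KD 72 h 4.77, 5.96 and 6.69, with 5 of 6 KD samples above the highest NC sample. The log2 fold change was 0.17 ± 0.24 (limma, adjusted p = 0.633) and 0.58 ± 0.19, 1.49-fold higher (adjusted p = 0.038), a call lost in 7 of 11 recomputations without 1 sample (KD 72 h replicates 3, 4, 5 and 6 and NC 72 h replicates 1, 4 and 6; adjusted p up to 0.0908) and given by all 4 tested entries of the gene. Slc25a34 was at −0.70 at 72 h (adjusted p = 0.0952).

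No member was called for a difference between the knockdown effects at 72 h and 24 h (limma, interaction contrast, 0 of 33). Over all entries 0.183% were called, with 0.0388% of genes lower and 0.204% higher. Slc25a24 had an interaction value of −1.31 ± 0.36 (adjusted p = 0.128), its 24 h effect being the larger. Slc25a4 was at 0.63 ± 0.23 (adjusted p = 0.272), and on the deposited scale at 0.80 (adjusted p = 0.0309). Slc25a22 was at −0.59 (adjusted p = 0.432), and at −1.12 within the larger library cluster (adjusted p = 0.0185). A call at 1 time and not the other, as for Slc25a5, Slc25a11, Slc25a14, Slc25a33, Slc25a40, Slc25a45 and Slc25a51, was therefore not shown to be a difference between the times.

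In the control cells, 6 of 32 members tested changed between 24 h and 72 h, 5 lower and 1 higher at 72 h, where 9.08% of all entries were called, and 4.78% of genes were lower and 4.71% higher. Slc25a5 fell by 0.34 on the log2 scale (SE 0.06; limma, adjusted p = 0.00302), Slc25a3 by 0.29 (SE 0.06; adjusted p = 0.00872), Slc25a10 by 0.33 (SE 0.09; adjusted p = 0.0319) and Slc25a39 by 0.32 (SE 0.08; adjusted p = 0.0268), in each case without overlap. Slc25a28 fell by 1.14 (SE 0.26; adjusted p = 0.0131), also without overlap, from 3.58, 4.43 and 5.15 scaled RPKM to 3.53, 1.28, 2.26, 1.15 and 2.23. It reached the read minimum in 6 NC 24 h and 3 NC 72 h samples. Only NC 24 h, where it was high, met the number the filter asks for, so its values are given as a description. Slc25a24 rose by 0.85 (SE 0.24; adjusted p = 0.0438), without overlap. The calls of Slc25a10, Slc25a24 and Slc25a39 were each lost without at least 5 of the 11 samples taken out in turn, and those of Slc25a3, Slc25a5 and Slc25a28 held each time. This comparison shares the NC samples with both knockdown comparisons, and its values stand only beside theirs.

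Within the clusters of samples, each member called kept its sign in both, 9 of 9 at 24 h and 10 of 10 at 72 h. The members were called on these same samples, so these counts are a description and not a replication. Slc25a24 was at 2.65 in the larger cluster and 1.66 in the smaller at 24 h, Slc25a42 at −1.89 and −0.61, Slc25a4 at −1.01 and −0.15, and Slc25a10 at −0.83 and −0.16. At 72 h the larger and smaller clusters gave 1.11 and 0.85 for Slc25a24, −1.66 and −0.85 for Slc25a42 and −0.75 and −0.05 for Slc25a51. In the larger cluster 8 of the 9 and 8 of the 10 calls passed the threshold and in the smaller, with 2 samples a group, none did; the effects in the smaller cluster were nearer to 0 for most of them, a difference that was not tested.

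Other proteins of mitochondrial transport were read from lists beside the members. Of 5 carrier relatives under other symbols, Ucp1 fell by 1.17 at 24 h and 2.36 at 72 h on the log2 scale (limma, adjusted p = 0.00483 and 9.88e-06), and Mtch2, an outer membrane insertase, fell by 0.56 and 0.50 (adjusted p = 0.0295 and 0.00206; −0.26 at 72 h on the deposited scale, adjusted p = 0.0786). None of 9 tested genes of the carrier import machinery, the TIM22 complex and its chaperones, was called at either time, and on the deposited scale Timm22, Timm10 and Tomm70a were called higher at 72 h. Among 16 other transport proteins, 6 fell at 24 h and 9 at 72 h (6 and 5 on the deposited scale) and none rose. For this list and those below, 12.8% of all genes tested were called lower at 24 h and 12.1% at 72 h. The shares called higher were 11.0% and 11.3%. The calcium uniporter Mcu fell by 2.46 and 1.73, the serine transporter Sfxn1 by 1.04 and 1.24 and the pyruvate carrier subunit Mpc1 by 0.62 and 1.42, each called at both times.

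Enzymes that work with the carriers moved in part with them. Of 5 enzymes of citrate synthesis and use, 2 fell at 24 h and 5 at 72 h (2 and 4 on the deposited scale), among them Acly, the ATP-citrate lyase, at −1.25 at 72 h (limma, adjusted p = 0.00174), while the citrate carrier Slc25a1 was not called. Around the malate-aspartate shuttle Mdh1 fell (−0.37 and −0.60) and Got2 rose (0.61 and 0.69) among 4 enzymes, and Slc25a11 fell at 72 h. In the carnitine shuttle Cpt1b fell at both times (−0.77 and −0.89) and Cpt2 at 72 h (−0.54) of 4 enzymes, and Slc25a20 was not called. The 72 h calls of Mdh1 and Cpt2 were not given by the deposited scale, at −0.35 (adjusted p = 0.0597) and −0.30 (adjusted p = 0.213). Cpt1a, also of the carnitine shuttle, was called higher at 72 h on that scale (0.58; limma, adjusted p = 0.00659). On the rescaled values it was at 0.34 (adjusted p = 0.0717), without a call.

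Markers of the cell types that the culture could hold were read beside the members. All 5 brite and brown adipocyte markers fell at both times (2 and 5 on the deposited scale), with summed scaled levels of 326 to 478 RPKM in KD 24 h against 458 to 886 in NC 24 h and 379 to 729 in KD 72 h against 1259 to 2077 in NC 72 h. Of 6 adipocyte markers 3 fell at 24 h and 2 at 72 h (2 and 1 on the deposited scale, where Cidec was called higher at 72 h), with sums of 36524 to 49143 against 48581 to 52359.9 and 25517 to 34697 against 35126 to 47944 scaled RPKM. Preadipocyte markers, with sums of 487 to 992 against 567 to 1148 and 856 to 1062 against 537 to 1306, gave no call at 24 h and 1 at 72 h, Cd34 higher. Cd34 did not pass the filter in the comparison of NC 72 h with NC 24 h. It entered the 72 h test only with the KD samples, where it was high, so that call is a description. Of the smooth muscle markers Tagln fell at 72 h (not called on the deposited scale, −0.51, adjusted p = 0.121), in sums of 176 to 875 against 511 to 1490 and 271 to 372 against 353 to 1083 RPKM. Macrophage markers summed to at most 29.6 scaled RPKM in any sample, with Csf1r higher at both times and Lyz2 lower at 72 h, and endothelial markers to at most 1.62, with none passing the filter. No marker was at 0 in every library. The part of these cell types in the member values was not tested.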

How the data were processed

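RNA of the 24 libraries was sequenced from the 3′ end with bulk barcoding, and the authors assigned reads to GenBank, Ensembl and RefSeq transcripts with the Genomatix software. The deposited table gives RPKM for 168326 entries. The version, genome build, strand handling and filters are not given in the sources used here. Values of 1 to 20 reads fell on whole reads (within 0.1) in 95.2% to 95.7% of cases, from which depth was recovered. The odd steps of NC 72 h replicate 6 were few, so its reads may be overstated up to double.

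RPKM were rescaled over 23 samples by the trimmed mean of log ratios (factors 0.903 to 1.227), with NC 72 h replicates 2 and 3 averaged. An entry was tested where it reached the equivalent of 10 reads at median depth in at least the number of samples of the smaller group and had 15 reads or more in sum. Log2(scaled RPKM + 0.1) was fitted over all entries with limma 3.58.1 (R 4.3.3, intensity trend, two-sided, Benjamini-Hochberg, threshold 0.05). Fold changes are on that scale and understate those of low genes. A linear model stands in for a count test because the table holds RPKM. Each comparison used its own 2 groups, and the interaction all 4. Ctcflos was tested by exact permutation of deposited RPKM (scipy 1.17.1). On simulated data the fit recovered 90% of genes changed by a log2 of 1 at 24 h and 86% at 72 h, and 100% at a log2 of 2. The changed genes were drawn from those above a read minimum. All genes had the same spread beyond counting noise, and there were no library clusters. These shares therefore do not carry over to members of few reads or of wider spread.

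Members, substrate classes and lists were chosen with earlier results of these data known. Described with values were all members called at 24 h, at 72 h or in the interaction and Slc25a1, Slc25a3, Slc25a4, Slc25a5, Slc25a11 and Slc25a20; the others are given by range and count. Some genes that meet these rules are counted but not reported here by name. Slc25a52 had no row. The alternatives were a pseudocount of 1, no filter, no rescaling, a replicate block, NC 72 h replicates 2 and 3 kept apart, 1 row per gene, rows of any accession type, voom on recovered reads, library clusters and the omission of each sample. Promoters are from RefSeq, GRCm38.p6.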

Additional observations from a re-analysis of the deposited data

Results flagged for a closer look

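In 5 of 76 groups, over 19 members, 1 sample stood apart from the rest of its group by the gap test, where chance gives about 1 in 20. In KD 24 h replicate 6, the shallowest library, Slc25a3 read 479 scaled RPKM against 257 to 287 in the other 5 samples, Slc25a11 read 55.7 against 40.2 to 44.0, and Slc25a33 read 3.98 against 1.89 to 2.27. Slc25a33 also read 6.31 in NC 24 h replicate 4, against 2.93 to 4.01 in the others. Slc25a40 read 1.98 in KD 24 h replicate 2, against 0.618 to 1.05 in the others. Without KD 24 h replicate 6, Slc25a33 was at −0.90 (limma, adjusted p = 0.00687) in place of −0.75, and Slc25a40 at −1.06 (adjusted p = 0.0127) in place of −1.13.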

How the results depend on the processing

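Of 9 members called at 24 h, the alternatives called 6 without the filter, 8 on the deposited scale and 11 in the larger library cluster, and 6 to 11 without 1 sample. At 72 h the count of 10 became 6 without the filter, 13 with NC 72 h replicates 2 and 3 apart and 6 to 13 without 1 sample. The 6 calls between the NC times became 3 without the filter, 2 in the larger cluster and 3 to 6 without 1 sample, 3 without NC 24 h replicate 1, 3 or 4, NC 72 h replicate 5 or the merged sample. The interaction gave 1 call on the deposited scale (Slc25a4), 1 in the larger cluster (Slc25a22) and 0 in the others. The smaller cluster gave 0 calls in each comparison. Same-numbered samples did not deviate together (mean r −0.07 at 24 h and 0.03 at 72 h). With the replicate number as a block, 6 members were called at 24 h, 4 at 72 h and 2 between the NC times. The 4 at 72 h were all lower, and 3 of the 10 main calls were kept, those of Slc25a10, Slc25a35 and Slc25a42. The rise of Slc25a24 at 72 h was not called in that setting. The Ctcflos difference ran from −0.665 to −0.425 RPKM at 24 h without 1 sample and from −1.08 to −0.864 at 72 h.

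Of 1198 recomputed single-member values, 1032 kept direction and side of the threshold, 141 no longer passed, 15 newly passed and 10 changed sign. At 72 h, Slc25a4 (0.15) and Slc25a40 (0.071) turned on the deposited scale, Slc25a22 in the larger cluster (−0.13) and Slc25a1 in the smaller (0.22), and Slc25a40 ran from −0.34 to 0.006 without 1 sample, at 0.006 without NC 72 h replicate 6. In the interaction the smaller cluster gave −0.20 for Slc25a5, 0.37 for Slc25a22, −0.11 for Slc25a33 and 0.02 for Slc25a51, and Slc25a5 ran from −0.01 to 0.33 without 1 sample. The cause of these changes was not tested. For the RefSeq rows of the 14 members below the filter a difference was not detectable at this depth, and for Slc25a30 another entry was tested and not called.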
